A study of Mus musculus with 2 samples.

Results

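The 9 genes described here carry the phosphate exchange between ATP and creatine or AMP, and the supply of creatine to the cell. They are 4 creatine kinases (Ckm, Ckmt2, Ckb and Ckmt1), 3 genes of creatine supply (Slc6a8, Gatm and Gamt) and 2 adenylate kinases (Ak1 and Ak3). They were chosen by symbol, and each of the 9 matched a single record among the 55536 mouse genes of the tables. Heart RNA was taken from 2 adult females of the mouse strain B6CASTF1/J, aged 8 to 10 months. These mice are F1 hybrids, so each carries a C57BL/6J and a CAST/EiJ genome. The labels name no treatment and no second group. Replicate 1 is the mouse numbered 1 in the labels and replicate 2 the mouse numbered 3. With 1 group of 2 animals there is nothing to compare between conditions, and the smallest two-sided p that an exact sign-flip test could reach is 0.5. Values are therefore given for each animal, or as mean ± SD (n = 2), with no p-value.

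Creatine kinases move a phosphate between ATP and creatine, and phosphocreatine acts as a rapidly available energy store in muscle and brain. In heart muscle a mitochondrial creatine kinase charges creatine where ATP is made, and a cytosolic one regenerates ATP beside the myofibrils and ion pumps. Adenylate kinases interconvert ADP with ATP and AMP, and AMP in turn is read by the energy sensor AMPK. Creatine is made from arginine and glycine by Gatm and Gamt, mainly in kidney and liver, and enters muscle cells from the blood through the transporter Slc6a8.

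Depth was 42223411 expected counts in replicate 1 and 40553237 in replicate 2. Levels are in TPM, transcripts per 1000000, which are corrected for transcript length and so can be compared between genes. Nuclear protein-coding genes held 37.8% of all TPM in replicate 1 and 33.3% in replicate 2. Reads were assigned to the C57BL/6J reference, without separation of the alleles. All 7 cardiomyocyte markers examined were present, from 400 TPM for the calcium release channel Ryr2 to 8288 TPM for the myosin heavy chain Myh6. Their summed level was 25947 TPM in replicate 1 and 22398 in replicate 2. Of 4 markers of liver and kidney, the organs of creatine synthesis, none reached 1 TPM, the highest being Apoa1 at 0.030 TPM, and Umod had no count in either library. In bulk tissue, fewer cells of a type cannot be told apart from less RNA per cell.

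The cytosolic creatine kinases Ckm and Ckb are near neighbours in sequence, which bears on how well reads can be told apart. The coding sequences compared are the longest annotated of each gene, from Ckm-203 and Ckb-201. Each has 1143 bases in 7 coding exons of identical lengths, and 75.9% of the aligned bases are identical. By alignment Ckm-203 held 3.16% of Ckm TPM, against 56.4% for Ckm-201, whose annotated coding sequence has 936 bases. The longest exact run shared by both coding sequences is 20 bases, shorter than the 31-base words searched for sharing between genes. The first coding exon shows the pattern, with 139 of 193 bases identical (72.0%). Both are printed from the transcript annotation GENCODE M21 on mm10, 5′ to 3′, with the differing bases in capitals. The Ckm exon lies at chr7:19414138-19414330 on the plus strand and the Ckb exon at chr12:111671766-111671958 on the minus strand.
Ckm: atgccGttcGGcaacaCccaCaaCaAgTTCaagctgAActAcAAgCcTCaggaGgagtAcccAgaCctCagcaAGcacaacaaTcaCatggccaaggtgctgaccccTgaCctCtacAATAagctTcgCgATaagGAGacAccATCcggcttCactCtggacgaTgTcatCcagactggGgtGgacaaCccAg
Ckb: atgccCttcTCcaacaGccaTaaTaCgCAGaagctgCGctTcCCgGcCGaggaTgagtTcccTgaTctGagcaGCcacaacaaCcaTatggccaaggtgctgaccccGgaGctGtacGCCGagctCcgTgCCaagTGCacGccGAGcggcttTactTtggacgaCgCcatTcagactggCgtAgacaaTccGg
The mitochondrial pair Ckmt2 and Ckmt1 has 9 coding exons each, with 1257 and 1254 coding bases, and 8 of the 9 exon lengths are identical. Of their aligned coding bases 71.6% are identical, and the longest exact run is 39 bases. The 4 comparisons of a cytosolic with a mitochondrial gene gave between 63.9% and 66.5% identical bases. Of the 31-base words in the annotated transcripts of Ckmt1, 0.339% occur in another gene, all of them in Ckmt2.

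The 9 genes spanned more than 3 powers of 10 in level, and their order was the same in both animals. From the highest it was Ckm, Ckmt2, Ak1, Slc6a8, Ak3, Ckb, Gamt, Gatm and Ckmt1. No neighbours in this order overlapped over the animals in plain TPM. By that measure the closest were Ak3 and Ckb, with Ak3 1.33-fold higher in replicate 1 and 1.5-fold higher in replicate 2. For Gatm and Ckmt1 the deposited credibility bounds overlapped in both animals. Their posterior mean TPM were 1.13 and 0.84 in replicate 1, and 0.94 and 0.92 in replicate 2. Of the 9 genes, 7 reached 1 TPM in both animals, beside 48.7% of all 22028 protein-coding genes. The exceptions were Gatm and Ckmt1.

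**Figure D1:**
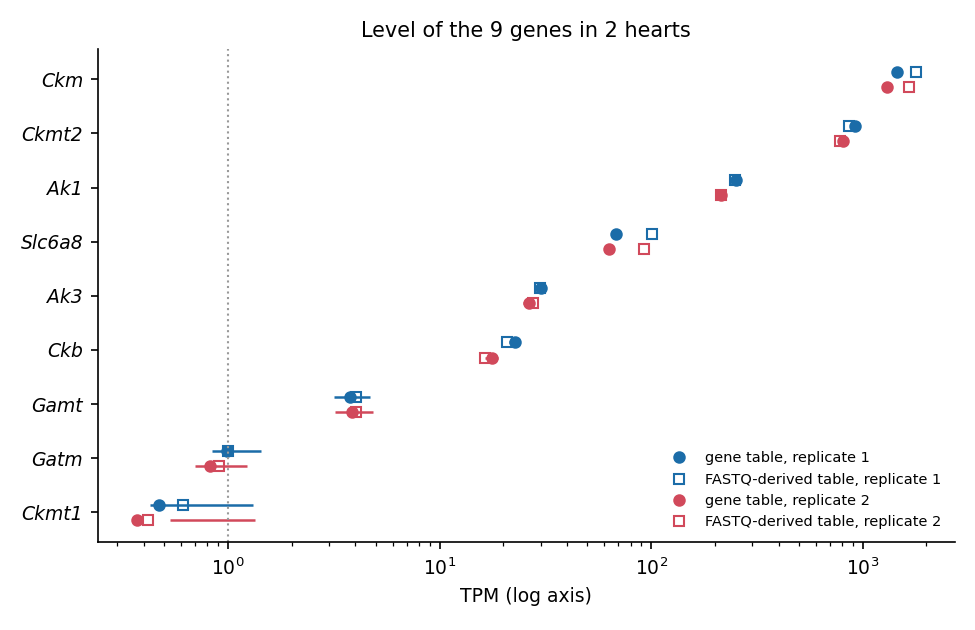
Level of each of the 9 genes in TPM on a log axis, for replicate 1 (blue) and replicate 2 (red). Filled circles are the gene table, open squares the sums of the FASTQ-derived transcript table, horizontal lines the deposited credibility bounds, and the dotted line marks 1 TPM. Ckm and Ckmt2 stand highest and Gatm and Ckmt1 at or below the dotted line. The gene-table values of Ckm and Ckmt2 exceed their upper bounds in both animals. Open squares lie to the right of the circles in both animals for Ckm, Slc6a8, Gamt, Gatm and Ckmt1, the last on few counts.

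Ckm, the cytosolic creatine kinase of muscle, lies at chr7:19404776-19422841 on the plus strand of mm10. It stood at 1445 TPM in replicate 1 (46708 expected counts) and 1303 TPM in replicate 2 (41915 counts), or 1374 ± 101 TPM (SD, n = 2). This was rank 35 of 22028 protein-coding genes. In plain TPM Ckm lay above its deposited upper credibility bounds of 1429.8 TPM in replicate 1 and 1290.5 TPM in replicate 2. Its deposited posterior mean TPM, 1415.7 and 1276.3, lay within the bounds. Within the nuclear protein-coding TPM it held 0.382% in replicate 1 and 0.392% in replicate 2. By the smallest distance over both samples, the genes of most like level were Cryab, a small heat shock protein abundant in heart muscle, and Atp5g1, a subunit of the mitochondrial ATP synthase. Cryab stood at 1499 and 1278 TPM and Atp5g1 at 1392 and 1325 TPM.

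Ckmt2, the sarcomeric mitochondrial creatine kinase, lies at chr13:91853387-91876885 on the minus strand. It stood at 919 TPM in replicate 1 (42875 counts) and 809 TPM in replicate 2 (37991 counts), or 864 ± 78.3 TPM (SD, n = 2), rank 54. Ckmt2 likewise lay above its deposited upper bounds of 908.9 and 800.0 TPM, with posterior mean TPM of 900.5 and 792.2 within the bounds. A gene of closely like level was Atp5o, another ATP synthase subunit, at 899 and 811 TPM. Ckm exceeded Ckmt2 1.57-fold in replicate 1 and 1.61-fold in replicate 2, a log2 ratio of 0.67 ± 0.02. The ratio depended on which transcripts of Ckm were counted, as described with its transcripts.

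Ckb, the cytosolic form known as the brain type, lies at chr12:111669361-111672338 on the minus strand. It stood at 22.7 TPM in replicate 1 (1057 counts) and 17.8 TPM in replicate 2 (827 counts), or 20.2 ± 3.50 TPM. Ckm was 63.7-fold higher than Ckb in replicate 1 and 73.4-fold higher in replicate 2 (log2 ratio 6.09 ± 0.14, n = 2). From protein-coding transcripts only, which leaves out the Ckm transcript Ckm-202 described below, the log2 ratio was 5.36 ± 0.13. Of 7 neural and glial markers, none reached 1 TPM in both animals. Their summed level was 2.50 TPM in replicate 1 and 1.51 TPM in replicate 2. Of the 3030 words of 31 bases in the 5 annotated Ckb transcripts together, 504 (16.6%) also occur in Gm12892. This is a processed pseudogene at chr4:122008193-122009338, so reads of both genes can be exchanged. Ckb-201, of 1472 bases, held 99.0% of Ckb, and the shared part of that transcript alone was not computed. Gm12892 was assigned only 6.19 and 5.14 counts.

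Ckmt1, the ubiquitous mitochondrial creatine kinase, lies at chr2:121357714-121363737 on the plus strand. It had 8 expected counts in replicate 1 and 18 in replicate 2, listed as 0.47 and 0.37 TPM. The TPM and the counts thus go in opposite directions between the animals. In replicate 1 the counts were assigned to a transcript of 851 bases and to a retained-intron transcript of 422 bases, and in replicate 2 to a transcript of 1518 bases. The deposited posterior mean TPM were 0.84 and 0.92, and the plain TPM of replicate 2 lay below its lower credibility bound of 0.53. Ckmt2 was 1956-fold higher than Ckmt1 in replicate 1 and 2185-fold higher in replicate 2 in TPM (log2 ratio 10.98 ± 0.11). With so few counts the size of that ratio is loosely fixed, and from expected counts alone it was 5359-fold and 2111-fold.

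Of the summed TPM of the 4 creatine kinases, Ckm held 60.9% ± 0.46 and Ckmt2 38.2% ± 0.37 (SD, n = 2). Ckb held 0.892% ± 0.083 and Ckmt1 0.0185% ± 0.0016. The sum was 2388 TPM in replicate 1 and 2129 TPM in replicate 2, and the shares of Ckm were 60.5% and 61.2%.

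To set the sequence upstream of the 3 highest creatine kinases side by side, the bases before their RefSeq starts (GRCm38.p6) are printed 5′ to 3′. Capitals mark matches, on either strand, to the TATA box (TATAAA), the CCAAT box (CCAAT), the GC box (GGGCGG), the ERR half-site (AAGGTCA), the E-box (CANNTG), the MEF2 box or the CArG box. The Ckm stretch is chr7:19410844-19411024 on the plus strand, ends before the earliest annotated start near it and lies within an intron of the longer-reaching transcript Ckm-202. The Ckmt2 stretch is chr13:91876886-91877135 and the Ckb stretch chr12:111672339-111672588, both on the minus strand.
Ckm: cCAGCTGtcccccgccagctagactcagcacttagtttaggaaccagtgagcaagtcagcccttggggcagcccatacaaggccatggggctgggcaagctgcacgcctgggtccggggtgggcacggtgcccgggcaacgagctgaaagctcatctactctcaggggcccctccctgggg
Ckmt2: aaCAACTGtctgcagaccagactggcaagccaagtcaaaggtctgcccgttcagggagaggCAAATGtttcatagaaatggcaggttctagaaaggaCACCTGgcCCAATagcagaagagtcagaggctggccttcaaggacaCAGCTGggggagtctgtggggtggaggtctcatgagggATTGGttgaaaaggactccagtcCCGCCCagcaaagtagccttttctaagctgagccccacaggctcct
Ckb: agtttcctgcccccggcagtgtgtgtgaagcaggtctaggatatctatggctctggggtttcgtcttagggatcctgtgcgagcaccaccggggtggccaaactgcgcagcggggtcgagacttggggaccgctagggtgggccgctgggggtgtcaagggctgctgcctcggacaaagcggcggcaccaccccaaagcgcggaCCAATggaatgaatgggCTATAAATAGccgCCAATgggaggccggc
The Ckm stretch holds 1 E-box. The Ckmt2 stretch holds 4 E-boxes, 2 CCAAT boxes and 1 GC box. The Ckb stretch holds 2 CCAAT boxes and, between them, a TATA box that lies inside a MEF2 box, so that 1 run of capitals counts for both. Of 32851 RefSeq windows of 250 bases before a start, 66.2% hold an E-box, 33.9% a CCAAT box, 32.7% a GC box, 12.4% a TATA box and 0.508% a MEF2 box. An ERR half-site is in 4.08% and a CArG box in 1.47% of them. The letters alone do not show that a factor binds, and the E-box, CCAAT box and GC box are common.

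Slc6a8, the sodium- and chloride-dependent creatine transporter of the plasma membrane, lies at chrX:73673150-73682502 on the plus strand. It was the highest of the supply genes, at 67.9 TPM in replicate 1 (7637 counts) and 62.9 TPM in replicate 2 (7330 counts), or 65.4 ± 3.56 TPM. The genes of most like level were Adssl1, the muscle form of adenylosuccinate synthase, at 68.6 and 62.7 TPM, and Higd1a, a mitochondrial protein of the hypoxia response, at 68.5 and 63.5 TPM.

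Gatm, arginine:glycine amidinotransferase, catalyses the first step of creatine synthesis in mitochondria and lies at chr2:122594467-122611303 on the minus strand. It stood at 0.99 TPM in replicate 1 (76 counts) and 0.82 TPM in replicate 2 (64 counts). Its credibility bounds of 0.839 to 1.44 and 0.699 to 1.22 TPM reached to both sides of 1 TPM. Gamt, guanidinoacetate methyltransferase, performs the second step and lies at chr10:80258151-80261012 on the minus strand. It had 110 counts in each animal, 3.79 TPM in replicate 1 and 3.86 TPM in replicate 2. Slc6a8 was 68.6-fold and 76.7-fold higher than Gatm (log2 ratio 6.16 ± 0.11). Gatm was lower than Gamt by 2.07 ± 0.21 on the log2 scale, and both enzymes were measured above a count of 0 in both hearts.

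Of 12 precursor genes, 7 reached 1 TPM in both animals, not far from the 48.7% of all protein-coding genes, and the list's median was 1.90 TPM in replicate 1 and 2.12 in replicate 2. The highest were Oat, ornithine aminotransferase, at 70.1 and 57.7 TPM, and Mat2a, which makes the methyl donor S-adenosylmethionine, at 41.2 and 39.2 TPM. The arginases Arg1 and Arg2 and the liver enzyme Mat1a had no count in either library, which allows up to 0.0711 and 0.0740 counts per 1000000 by counting error only. The arginine transporter Slc7a2 stood at 0.37 and 0.62 TPM. Slc16a12, known in other tissues to carry creatine and guanidinoacetate across membranes, stood at 0.45 and 0.72 TPM.

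Ak1, the cytosolic adenylate kinase of muscle and other tissues, lies at chr2:32621758-32635058 on the plus strand. It stood at 252 TPM in replicate 1 (16447 counts) and 214 TPM in replicate 2 (13883 counts), or 233 ± 26.9 TPM, rank 242. The genes of most like level were D10Jhu81e, at 249 and 218 TPM, and Clu, the secreted chaperone clusterin, at 258 and 219 TPM. Ak3, which transfers phosphate from GTP to AMP in the mitochondrial matrix, lies at chr19:29020833-29047961 on the minus strand. It stood at 30.2 TPM in replicate 1 (2540 counts) and 26.6 TPM in replicate 2 (2222 counts). Ak1 was 8.35-fold and 8.07-fold higher than Ak3 (log2 ratio 3.04 ± 0.04).

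Ak3 shares 5849 bases of its locus with Cdc37l1, a co-chaperone gene on the opposite strand, which had 2897 and 2471 counts. Of the 31-base words in Ak3 transcripts, read on either strand, 13.0% also occur in Cdc37l1. The library kit was directional, but the labels do not say whether strand was used in counting. Reads of the shared stretch may therefore belong to either gene.

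Of the other 7 adenylate kinases, 3 reached 1 TPM in both animals, near the background share. Among them Ak6, a nuclear family member, stood at 20.4 ± 0.86 TPM (SD, n = 2). Ak4, a matrix relative of Ak3, stood at 13.7 and 12.3 TPM. Ak5, known from brain, had 1 count in each library, Ak9 had 3 and 1, and Ak7 and Ak8, known from cilia, had none. Ak1 alone exceeded the summed 59.1 and 52.4 TPM of these 7 genes.

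The other lists of the pathway are given beside the background, in which 48.7% of protein-coding genes reached 1 TPM in both animals. No compared member of these lists was 2-fold apart between the animals after centring, and over all genes compared only 1.41% were. All 10 other nucleotide kinases reached 1 TPM in both animals, led by the nucleoside diphosphate kinase Nme2 at 415 and 377 TPM and the guanylate kinase Guk1 at 41.3 and 36.8 TPM. Of 14 genes of AMP turnover and purine salvage 12 did, led by the adenosine kinase Adk at 88.8 and 82.1 TPM and by Adssl1. The exceptions were Ampd1, the AMP deaminase of skeletal muscle, at 0.25 and 0.27 TPM and adenosine deaminase, Ada, at 0.17 and 0.20 TPM. Of 7 genes of ATP, ADP and phosphate exchange across the mitochondrial membranes 6 did. Slc25a4, the adenine nucleotide translocator of heart and muscle, stood at 1744 and 1591 TPM and the phosphate carrier Slc25a3 at 1015 and 884 TPM, while the germ-cell translocator Slc25a31 stood at 0.090 and 0.040 TPM. All 7 genes at sites of ATP use did, led by Myh6 at 8814 and 7761 TPM and by the sarcoplasmic calcium pump Atp2a2 at 4933 and 4207 TPM. Both lie above Ckm, the highest of the 9 genes.

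**Figure D2:**
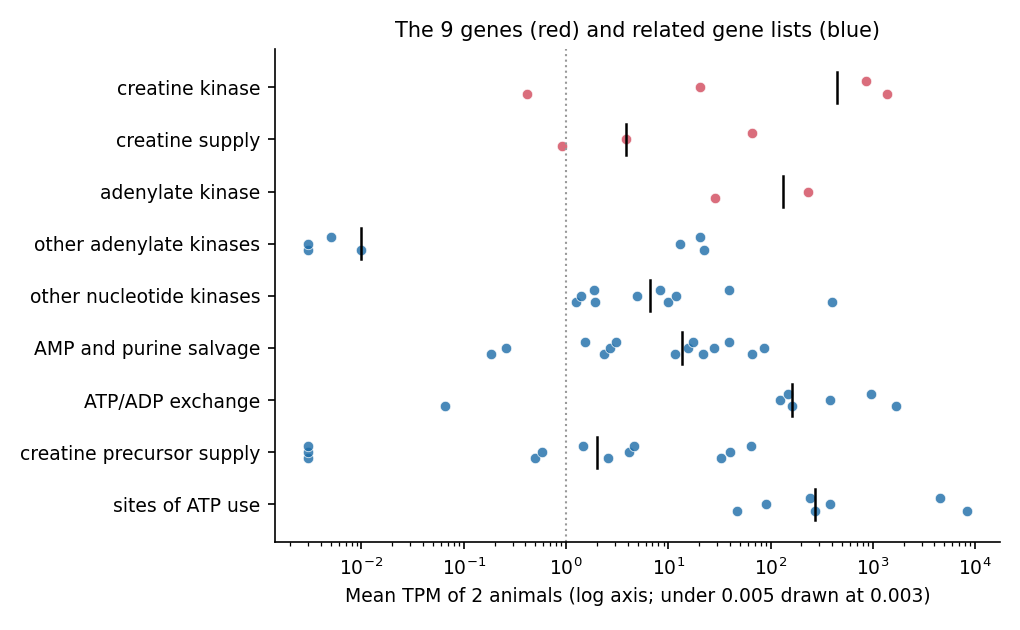
Mean TPM of the 2 animals on a log axis for the 9 genes (red) and for genes of 6 related lists (blue), 1 point per gene and a black bar at each list's median. The dotted line marks 1 TPM, and genes under 0.005 TPM are drawn at 0.003. The creatine kinases span the range from 0.42 to 1374 TPM, and the sites of ATP use lie between 46.9 and 8288 TPM.

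After centring, each of the 7 members compared was less than 1.2-fold apart between the animals. Whether the members depart from the background given here was not tested. In plain TPM 6 of the 7 members with a mean of 1 TPM or more were lower in replicate 2, beside 79.3% of 11876 genes compared, a share near that background. The median log2 ratio of those genes, from TPM + 0.1, was -0.18 and was subtracted from each gene's ratio. The median of 22 ERCC spike-ins, RNAs added in known amounts, was -0.21. After centring, 0 of 7 members were 2-fold or more apart, beside 1.41% of all compared genes, and 0 of 7 were 1.2-fold or more apart, beside 26.4%. Centred log2 ratios of replicate 2 to replicate 1 ran from -0.17 for Ckb to 0.21 for Gamt. Between them lay Ckm at 0.03, Ckmt2 at -0.00, Slc6a8 at 0.07, Ak1 at -0.05 and Ak3 at -0.00. The median size was 0.05 over the 7 members and 0.14 over all compared genes, most of which were less abundant than Ckm, Ckmt2 and Ak1. Ckmt1 and Gatm, under a mean of 1 TPM, were not compared.

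Some marker lists of other cell types had centred ratios mostly to 1 side. Centring puts 5938 of the 11876 compared genes below 0, and the median size over all of them was 0.14. Centred log2 ratios were negative for 6 of 6 endothelial markers (median -0.23) and for 5 of 5 red cell markers compared (median -0.43). Whether any of these lists departs from that background was not tested. Summed endothelial TPM were 213 in replicate 1 and 156 in replicate 2, from Egfl7 at 56.5 and 38.2 TPM down to Emcn at 18.0 and 15.0 TPM. Red cell markers summed to 3478 and 2255 TPM, from Hbb-bs at 1260 and 807 TPM down to Slc4a1 at 1.00 and 0.070 TPM. Fibroblast markers summed to 186 and 156 TPM, with 5 of 6 centred ratios negative (median -0.13), from Dcn at 121 and 104 TPM to Tcf21 at 4.07 and 2.83 TPM. Ckb, at -0.17, lay in the same direction, and the part of these cells in its value was not tested. Skeletal muscle markers went the other way, with a median centred log2 ratio of 0.25 and 0 of 6 compared markers negative. They summed to 19.4 and 20.4 TPM over 8 genes, from Myh2 at 0.13 and 0.16 TPM to Mylpf at 5.20 and 5.08 TPM. Mylpf had 67 and 68 counts and in plain TPM was lower in replicate 2. The medians of macrophage, smooth muscle and adipocyte markers were 0.03, 0.08 and -0.04.

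**Figure D3:**
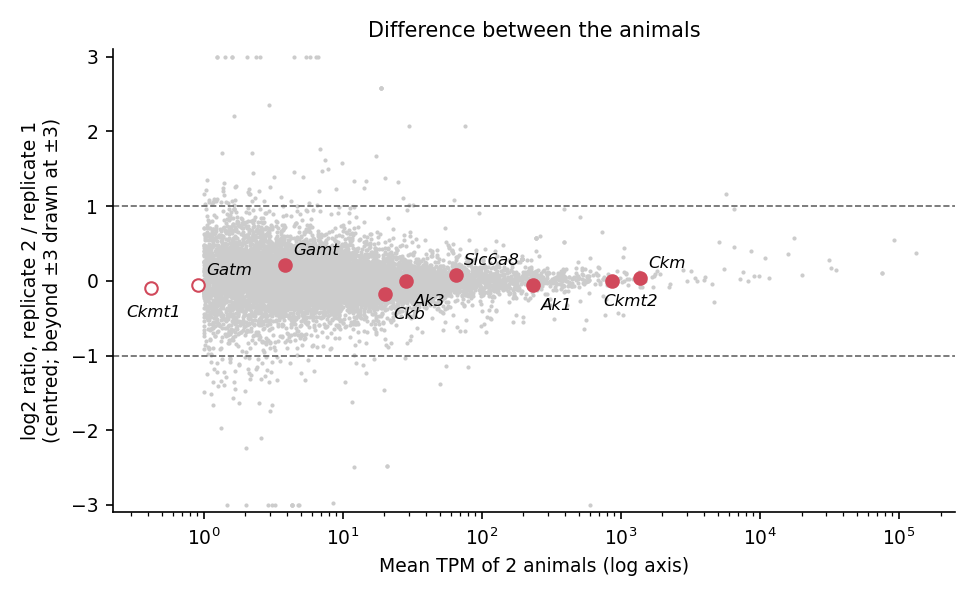
Centred log2 ratio of replicate 2 to replicate 1 against mean TPM on a log axis for 11876 genes (grey) and the 9 members (red; open circles were not compared because their mean was under 1 TPM). Dashed lines mark 2-fold. All members lie between the dashed lines, with Gamt at 0.21 the highest and Ckb at -0.17 the lowest.

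The authors deposited 2 quantifications of the same reads, a gene and a transcript table derived from transcriptome alignments and a transcript table derived from a FASTQ file. Between the alignment-derived and the FASTQ-derived values, 0 of 7 members were 2-fold apart in both animals, beside 3.34% of 12080 genes compared. At 1.2-fold the number was 2 of 7, Ckm and Slc6a8, beside 18.1%. Ckm was higher in the FASTQ-derived table, at 1780 and 1662 TPM, and so was Slc6a8, at 101 and 92.7 TPM. The other 5 differed by 0.13 or less on the log2 scale, as the mean of both animals. The main transcript was the same in both tables for 6 of the 9 genes and different for Ckm, Slc6a8 and Ak1.

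Ckm has 3 annotated transcripts, and its level was divided mainly between a pair of them. In the alignment-derived table Ckm-201, annotated as protein-coding, held 56.4% ± 0.37. Ckm-202, a processed transcript of 671 bases without an annotated coding sequence, held 40.4% ± 0.65, and Ckm-203 3.16% ± 0.28. In the FASTQ-derived table Ckm-202 led, with 924 and 867 TPM against 854 and 794 TPM for Ckm-201. The difference between the transcripts includes the exon at chr7:19414119-19414330, whose last 193 bases are the Ckm sequence printed above. That exon is part of Ckm-202 and Ckm-203 and absent from Ckm-201, whose annotated coding length is 936 bases against 1143 in Ckm-203. Ckm-203 has 2742 bases, and its last exon is 1634 bases long against 377 in Ckm-201. None of the annotated transcripts joins that exon to the short last exon.

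Counting only transcripts annotated as protein-coding, Ckm stood at 868 and 770 TPM and Ckmt2 at 919 and 809 TPM. The order of both genes was then turned, with a log2 ratio of -0.076 ± 0.0092 in place of 0.67 ± 0.02. From expected counts not divided by length Ckm was 1.09-fold and 1.10-fold higher, and by the FASTQ-derived values it was 2.07-fold and 2.13-fold higher. That Ckm and Ckmt2 were the highest of the 4 genes held under each of these settings, but their order rested on how Ckm-202 was treated. Ckmt2 has 1 annotated transcript.

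**Figure D4:**
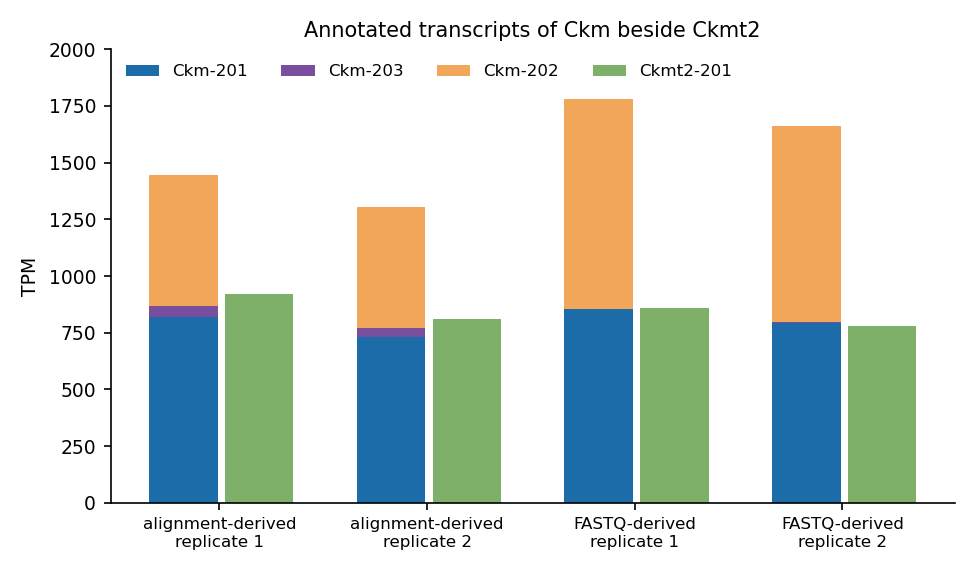
TPM of the annotated Ckm transcripts, stacked, beside Ckmt2-201 (green), for each replicate in the alignment-derived and the FASTQ-derived table. Ckm-201 (blue) alone is about as high as Ckmt2-201 or lower, and Ckm-202 (orange) adds between 532 and 924 TPM.

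Ak1 was nearly all in protein-coding transcripts, but the tables placed it on different starts. In the alignment-derived table Ak1-202 held 93.5% ± 0.96 and Ak1-203 5.38% and 2.60%. In the FASTQ-derived table Ak1-203 held 223 and 160 TPM and Ak1-202 1.09 and 9.23 TPM, while Ak1-201 held 18.4 and 39.5 TPM against 0 in the alignment-derived table. Ak1-202 and Ak1-203 have the same coding length of 582 bases and differ in the first exon, of 102 bases from position 32625437 and 120 bases from position 32621758 on chromosome 2. They also differ by a few bases at the end of the last exon, which is 1414 and 1418 bases long. Summed over transcripts, the level of Ak1 was 248 and 214 TPM in the FASTQ-derived table against 252 and 214 TPM. The gene's level therefore hardly depended on the table, and the choice of start did.

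The sequences before these starts are printed for comparison, from RefSeq (GRCm38.p6), on the plus strand, 5′ to 3′, with capitals marking the motifs defined above. The window before the Ak1-203 start is chr2:32621508-32621757, and the window before the Ak1-202 start is chr2:32625187-32625436.
Ak1-203 start: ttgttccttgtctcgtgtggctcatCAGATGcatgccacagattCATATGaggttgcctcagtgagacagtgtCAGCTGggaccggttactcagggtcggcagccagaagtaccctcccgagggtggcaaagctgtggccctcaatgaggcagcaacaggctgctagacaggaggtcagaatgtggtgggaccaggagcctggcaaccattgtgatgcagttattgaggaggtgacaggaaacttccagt
Ak1-202 start: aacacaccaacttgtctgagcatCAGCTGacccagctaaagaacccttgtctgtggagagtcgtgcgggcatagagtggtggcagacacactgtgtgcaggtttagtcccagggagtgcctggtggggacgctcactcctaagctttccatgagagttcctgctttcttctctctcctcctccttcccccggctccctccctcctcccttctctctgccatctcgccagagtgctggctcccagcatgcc
The first holds 3 E-boxes and the second 1, and neither holds another of the motifs. The windows before the starts of Gamt and Ak3 hold 3 and 2 GC boxes.

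Slc6a8 was the gene with the most annotated transcripts, 13 of the 47 of all 9 genes. Slc6a8-201, of 3964 bases, held 56.2% ± 2.55 by alignment and 24.5% ± 1.74 in the FASTQ-derived table. There Slc6a8-213, of 537 bases, led with 31.8 and 27.4 TPM, against 1.64 and 0 TPM in the alignment-derived table. Slc6a8-202, annotated as subject to nonsense-mediated decay, held 6.60% and 12.4% by alignment and 18.5% and 19.4% from FASTQ. Protein-coding transcripts together held 86.7% of Slc6a8 by the first quantification and 77.4% by the second. The counts of the whole gene differed less between the tables than its TPM, at 7773 and 7501 estimated counts in the FASTQ-derived table against 7637 and 7330 expected counts.

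**Figure D5:**
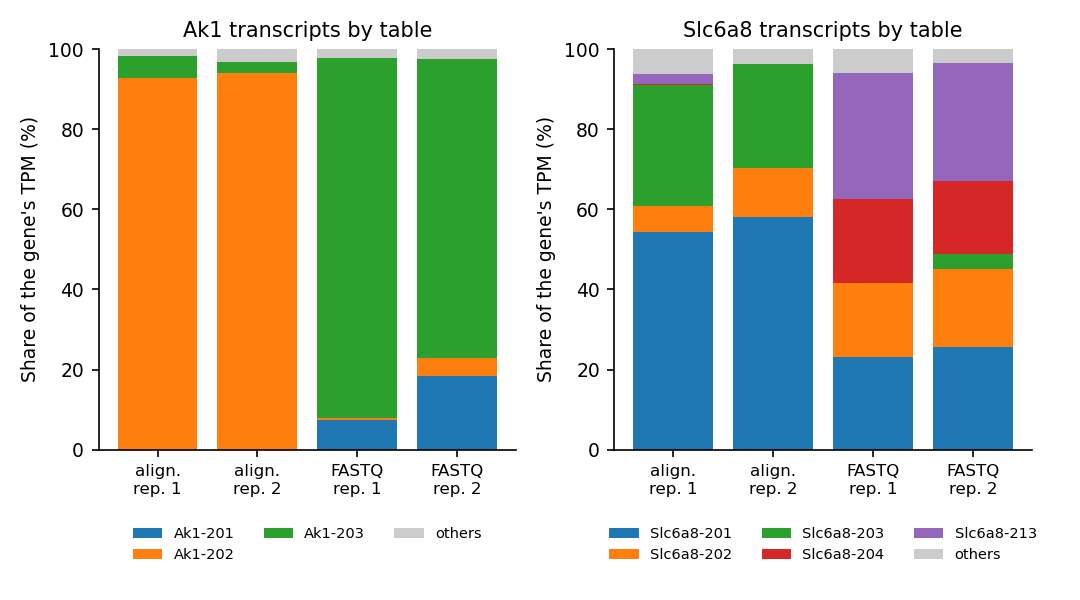
Share of each gene's TPM, in percent, held by the annotated transcripts of Ak1 (left) and Slc6a8 (right) in each replicate, for the alignment-derived and the FASTQ-derived tables. Transcripts whose mean over the animals was under 4% in both tables are drawn together in grey. Ak1-202 (orange) fills 92.8% and 94.2% of the alignment-derived bars and 0.441% and 4.32% of the FASTQ-derived bars.

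The remaining genes kept their main transcript. Ckb-201 held 99.0% ± 0.21 by alignment and 96.6% from FASTQ, and Gatm-201 held all of its gene in both. Ak3-201 held 90.2% ± 0.97 and Gamt-202 90.2% ± 8.21, the latter from 96.0% in replicate 1 and 84.4% in replicate 2 of a gene with 110 counts in each. For Ckmt1 the main transcript differed between the animals, at 8 and 18 counts.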

How the data were processed

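Libraries of total RNA from 2 hearts used a directional kit, 300 ng of input RNA, ERCC spike-ins and reduction of ribosomal RNA, per the labels' protocols. The deposited description files name mm10 and GENCODE M21, and say that the tables were derived from transcriptome alignments or from a FASTQ file. For the aligner and quantifier, names were not given in the sources used here. Per the file headers, the tables hold expected counts (estimated counts in the FASTQ-derived table) and TPM. Per the file headers the transcript table also gives IsoPct, the percent of a gene held by a transcript, and the deposited credibility bounds are a score whose level is not given.

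With Python 3.11.15, numpy 2.4.6, pandas 2.3.3 and biopython 1.88, paralogue ratios were taken as log2(TPM + 0.01) and the animals compared as log2(TPM + 0.1), over genes that averaged 1 TPM and had 20 counts in all. The pseudocount shrinks differences of low genes. For the comparison of tables a mean of 1 TPM in either table was enough. Expressed means 1 TPM or more in both animals. Coding sequences were aligned in pairs. Shared words of 31 bases were searched in all annotated transcripts on either strand.

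The labels give both libraries 1 donor identifier, so n = 2 rests on the animal numbers. Without molecular identifiers, reads are no independent molecules, and the limit given to a count of 0 (3 counts) covers counting error only. The members and lists were chosen with earlier results of these data known. By rule, all 9 members are named, and of each pathway list the 2 highest members, those under 1 TPM in both animals and any 2-fold apart. Of each marker list the highest and lowest are named, and for 4 members the 2 nuclear protein-coding genes of most like level. Ak4, Gm12892, Cdc37l1 and the transcripts described were named after their values were seen. Some genes that the rule names are not reported here. RefSeq promoter windows matched 8 of 9 members.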

Additional observations from a re-analysis of the deposited data

Results flagged for a closer look

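Counts were assigned to 2 antisense genes that overlap members and lie outside the comparisons. A930016O22Rik, annotated antisense to Ckm at chr7:19417466-19421417, had 4 expected counts in replicate 1 and 8 in replicate 2. In the FASTQ-derived table it stood at 0.109 TPM in replicate 1 and at 0 in replicate 2. 1700018L02Rik, annotated antisense to Ak3 at chr19:29046245-29048729, had 16 and 14 expected counts. Each count exceeds 3, the limit set for a count of 0, with no control sample to set it against. 1700119I11Rik, annotated antisense to Ckmt2, had 0 counts in both. A930016O22Rik holds 12.8% of the 31-base words of Ckm and 1700018L02Rik 8.19% of those of Ak3, and whether reads were assigned to the right strand was not tested.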

How the results depend on the processing

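Of 81 values under other settings, 43 stayed within 1 SD of the reported value or, for counts of genes, within 1.5 times it, 37 moved farther and 1 reversed. The reversal was the log2 ratio of Ckm to Ckmt2, 0.67 in the report and -0.076 from protein-coding transcripts only, a setting chosen after seeing the data that leaves out Ckm-202 by construction. It was 1.07 in the FASTQ-derived table and 0.13 from counts not divided by length. The ratio of Ckm to Ckb was 6.54, 5.56 and 5.36 under the FASTQ-derived table, counts and protein-coding transcripts. In the same order the ratio of Ckmt2 to Ckmt1 was 10.63, 11.71 and 11.58, with 9.89 from posterior mean TPM and 9.25 with a pseudocount of 1. The ratio of Slc6a8 to Gatm was 6.65, 6.75 and 5.96, with 5.99 and 5.12. The ratio of Ak1 to Ak3 was 2.99 with a pseudocount of 1 and 2.67 from counts, and that of Gatm to Gamt -1.34 and -0.66. The FASTQ-derived table gave shares of 47.9% for Ckm-201, 96.6% for Ckb-201, 24.5% for Slc6a8-201 and 2.38% for Ak1-202. Ckm held 67.2% of creatine kinase TPM there, 51.7% by counts and 48.1% by protein-coding transcripts. The cause of these shifts was not tested beyond what each setting leaves out. Leaving out 1 of 2 animals gives the value of the other, which by construction lies within 1 SD of the mean, so those 52 values say nothing about stability. The share of Ckmt1-202 then ran from 0 to 100%. With 1 group of 2 animals, variation between animals is barely sampled, and Ckmt1 and Gatm rest on few counts.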

Other observations

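Markers of further cell types were measured in both hearts. Of 5 macrophage markers 5 reached 1 TPM in both animals, from Adgre1 at 1.48 and 1.08 TPM to Lyz2 at 34.4 and 26.9 TPM. Of 5 smooth muscle markers 4 did, from Lmod1 at 0.75 and 0.82 TPM to Smtn at 47.0 and 38.1 TPM. Of 4 adipocyte markers 2 did, from Adipoq at 0.91 and 1.03 TPM to Cidea at 15.0 and 12.9 TPM, a gene that mouse brown fat expresses. Ucp1, the uncoupling protein of brown fat, stood at 0.74 and 1.44 TPM from 38 and 75 counts. It was the only marker compared that passed the 2-fold rule, and only after centring, with a centred log2 ratio of 1.06 that rests on few counts.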
